A study of Homo sapiens with 6 samples.

Results

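Cyclin-dependent kinase inhibitors are small proteins that hold the cell cycle back, and the human genome encodes 7 of them in a CIP/KIP family (CDKN1A, CDKN1B and CDKN1C) and an INK4 family (CDKN2A, CDKN2B, CDKN2C and CDKN2D). The 7 genes were taken by symbol from a table of read counts, where each had 1 row among 22354 loci. All 7 passed the filter on low counts, which left 14860 loci to be tested. RNA was sequenced from 6 libraries of a human thyroid cell line, named Htoris-3.1 in the labels and described there as normal thyroid, to ask what changes when the clock gene BMAL1 is targeted in cells under DNA damage. Of these libraries 3 were controls with a wild type genotype and 3 were labelled BMAL1 knock out, made with Cas9 and a guide RNA delivered by lentivirus, puromycin selection and single clones. All 6 had received etoposide, a topoisomerase poison that breaks DNA, at 2 μM, so no library shows the cells without damage. The exposure is given as 12 h in one field of the labels and as 24 h in another. Nothing says whether the libraries of a group came from separate clones or cultures, and p-values measure only the spread between these libraries, which may be technical.

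CIP/KIP proteins bind cyclin E and cyclin A complexes with CDK2, whereas INK4 proteins bind CDK4 and CDK6 and keep cyclin D from activating them. Both keep the retinoblastoma protein RB in the form that restrains E2F transcription factors. CDKN1A is a classic target of p53 after DNA damage, CDKN2B responds to TGF-beta, and CDKN1A and CDKN2A are widely used markers of senescent cells.

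The targeted gene was examined first. Normalised BMAL1 counts, scaled for library size (CPM), were 11.3, 12.2 and 14.6 in the controls and 17.9, 19.8 and 19.4 in the labelled knockouts. All labelled knockouts were above all controls, so the transcript was not lower under the label (log2 fold change 0.58, standard error (SE) 0.11, adjusted p = 0.0237 by the edgeR quasi-likelihood test, Benjamini-Hochberg over all loci tested). Counts per gene do not show whether the gene was edited or its protein lost. The libraries are therefore called labelled BMAL1 knockout throughout. That adjusted p was 0.105 without control replicate 1, 0.129 without control replicate 2, 0.0817 without knockout replicate 2 and 0.0598 without knockout replicate 3. BMAL1 protein was not analysed here, and the study's methods describe western blots to check the knockout clones. NR1D1, a repressor of the clock whose transcription BMAL1 and CLOCK drive, fell by 1.25 on the log2 scale (SE 0.14, edgeR adjusted p = 0.00121). Depth also differed with the label: the controls held 26893063, 27029060 and 28513703 counts, and the labelled knockouts 43148059, 29860233 and 43563391. Knockout replicate 1 stood apart from its group. The differences between knockout replicates 1 and 2 had a variance 31.05 times that of counting alone and those between 1 and 3 a variance 44.99 times, against 7.43 for knockout replicates 2 and 3 and 5.41, 14.5 and 13.2 for the pairs of controls. Results that change without this library are given below with both values, and the reason it stood apart was not tested. After random thinning of every library to the lowest depth, the edgeR adjusted p was 0.0157 for CDKN2B and 0.0547 for CDKN1A.

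Markers were read against the label of the cells. Of 8 thyroid follicular markers, only PAX8 and FOXE1 passed the filter on low counts, with PAX8 at 133 ± 15.4 CPM in the controls and 110 ± 19.1 CPM in the labelled knockouts (SD, n = 3). NKX2-1 was at 0 in every library, and TG, TSHR, SLC5A5 and DUOX2 held at most 13 counts in any library. FOXE1 had a log2 fold change of -0.26 (edgeR adjusted p = 0.141) and PAX8 one of -0.28 (adjusted p = 0.263). The keratin genes KRT7, KRT8 and KRT18 were abundant, and the 6 epithelial markers summed to 2983, 3012 and 2846 CPM in the controls and 2512, 2537 and 2607 CPM in the labelled knockouts, with CDH1 at 5 to 14 counts. The collagen gene COL1A1 was abundant as well, at 860 ± 77.9 CPM in the controls and 859 ± 141 CPM in the labelled knockouts (SD, n = 3), whereas the fibroblast markers DCN and LUM were at 0 in every library. Of 5 epithelial markers tested 1 passed, 3 had a log2 fold change above 0 and 2 below, and the median was 0.10. KRT18 fell by 0.50 on the log2 scale (SE 0.075, edgeR adjusted p = 0.00588, and 0.0561 without control replicate 2). KRT8, the most abundant of them, had -0.28 (edgeR adjusted p = 0.0517, and 0.00758 without knockout replicate 1, in a range of 0.000498 to 0.254 over the alternatives in edgeR, DESeq2 and limma). KRT7 had 0.10 and KRT19 0.23 (edgeR adjusted p = 0.535 and 0.406). EPCAM, above 0 as well, held 0, 10 and 0 counts in the controls and 10, 16 and 17 in the labelled knockouts, so that no fold is given (edgeR adjusted p = 0.378). PTPRC, the pan-leukocyte CD45 gene, fell by 1.42 (SE 0.15, edgeR adjusted p = 0.00107). The 6 immune markers summed to 19.0, 19.4 and 17.1 CPM in the controls and 13.7, 11.7 and 12.3 CPM in the labelled knockouts, 2 of them passed the filter, CD68 was the most abundant and CD3E was at 0 throughout. CD68 had a log2 fold change of -0.27 (edgeR adjusted p = 0.294) and PDGFRB 0.14 (adjusted p = 0.560). Of 3 endothelial markers tested 1 had a log2 fold change above 0 and 2 below. The 2 below were VWF at -0.24 and CDH5 at -0.56 (edgeR adjusted p = 0.709 and 0.565). Both rest on few counts, 22 to 56 a library for VWF and 9 to 19 for CDH5. The part of these markers in the results below was not tested.

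All 7 inhibitors had a log2 fold change above 0, as did 52.3% of all loci tested, and 1 of the 7, CDKN2B, passed an adjusted p of 0.05 in edgeR. Among all loci 2.37% passed in either direction, 150 higher (1.01%) and 202 lower (1.36%). This count depends on an option of the test: with the default estimator of this edgeR version 2 of the 7 passed, CDKN1A at an adjusted p of 0.0483 beside CDKN2B at 0.0163, and 161 loci were higher and 212 lower. It also depends on single libraries. Without knockout replicate 1 edgeR called 323 loci higher and 360 lower, and 2 of the 7 inhibitors. The loci higher and lower numbered 67 and 75 without control replicate 1, 39 and 65 without control replicate 2, 52 and 78 without control replicate 3, 57 and 86 without knockout replicate 2, and 103 and 146 without knockout replicate 3. For CDKN1A, CDKN2B and CDKN2C, 3 of the 7, every labelled knockout exceeded every control in CPM, against 11.8% of all loci. An unadjusted p under 0.05 with a higher mean was reached by 3 of the 7, CDKN1A, CDKN1C and CDKN2B, against 9.1% of all loci. The median log2 fold change was 0.23 for the 7 and 0.01 for all loci tested. Since the genes were chosen with earlier results known, these counts describe the family and set no test on it.

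**Figure D1:**
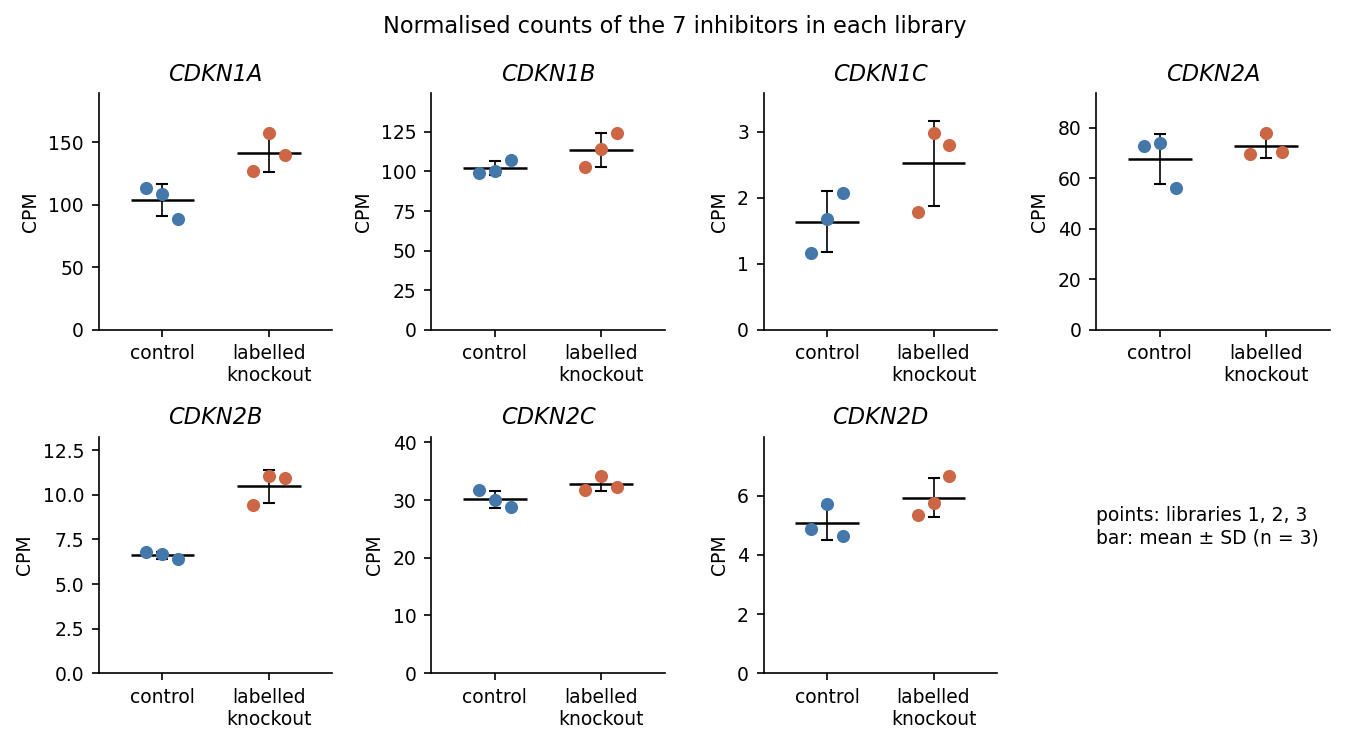
Normalised counts (CPM) of the 7 inhibitors in each library, with the controls in blue and the libraries labelled BMAL1 knockout in orange; bars give the mean ± SD of 3 libraries and each panel has its own axis from 0. CDKN2B lies between 6.39 and 6.78 CPM in the controls and between 9.42 and 11.04 CPM in the labelled knockouts, and only CDKN1A, CDKN2B and CDKN2C are without overlap.

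CDKN1A encodes p21, the inhibitor through which p53 halts cells before S phase. Its gene (ENSG00000124762.14) lies at chr6:36676460-36687337 of hg38 on the forward strand. CDKN1A stood at 113, 109 and 88.9 CPM in the controls and at 127, 158 and 140 CPM in the labelled knockouts. Every labelled knockout library was above every control, with knockout replicate 1 closest to the controls and control replicate 3 the lowest. The log2 fold change was 0.45 (SE 0.11, 95% interval 0.21 to 0.68), and the edgeR adjusted p of 0.0520 missed the threshold. DESeq2, the tool the study's methods name, gave 0.00291, and with DESeq2 2 of the 7 inhibitors were higher against 1.8% of the loci it adjusted. Over all 18 alternatives the adjusted p of CDKN1A, from edgeR, DESeq2 or limma, ran from 0.00291 to 0.186 and was under 0.05 in 8. Of the 6 edgeR fits that left a library out, 1 passed, at 0.0156 without knockout replicate 1. The adjusted p was 0.0730, 0.150 and 0.142 without control replicates 1, 2 and 3. It was 0.186 and 0.0896 without knockout replicates 2 and 3. The log2 fold change was lowest, at 0.35, without control replicate 3. A two-sided exact permutation test of 3 libraries against 3 gave p = 0.1, the smallest p this design allows.

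CDKN1B encodes p27, which holds CDK2 inactive in resting cells and is governed largely through protein turnover. It lies at chr12:12685498-12722369 on the forward strand (ENSG00000111276.12). CDKN1B stood at 99.0, 101 and 107 CPM in the controls and at 103, 114 and 124 CPM in the labelled knockouts. The groups overlapped, since knockout replicate 1 was below control replicate 3. The log2 fold change was 0.16 (95% interval -0.03 to 0.34, edgeR adjusted p = 0.383), and 0.09 without knockout replicate 3. Within a library, CDKN1A counts divided by CDKN1B counts gave 1.15, 1.08 and 0.831 in the controls and 1.23, 1.38 and 1.12 in the labelled knockouts. The ratios overlapped, as knockout replicate 3 fell below control replicate 1 (difference in log2 ratio 0.30, two-sided exact permutation p = 0.2). The difference was 0.16 without control replicate 3.

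CDKN1C encodes p57, an imprinted inhibitor with a role in development, at chr11:2883213-2885775 on the reverse strand (ENSG00000129757.15). Its raw counts were 31, 45 and 58 in the controls and 76, 91 and 124 in the labelled knockouts. After scaling for depth these were 1.16, 1.68 and 2.07 CPM against 1.78, 2.98 and 2.80 CPM, so that the groups overlapped at knockout replicate 1. The log2 fold change of 0.60 had a wide interval, 0.02 to 1.18, and an edgeR adjusted p of 0.279.

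In the INK4 family, CDKN2B and CDKN2A are neighbours on chromosome 9. CDKN2B encodes p15, which binds CDK4 and CDK6 and is induced by TGF-beta, and lies at chr9:22002903-22009305 on the reverse strand (ENSG00000147883.12). CDKN2B stood at 6.78, 6.66 and 6.39 CPM in the controls and at 9.42, 11.04 and 10.97 CPM in the labelled knockouts. The controls were close together and all labelled knockouts lay above them. CDKN2B rose by 0.66 on the log2 scale (SE 0.12, 95% interval 0.40 to 0.92, edgeR adjusted p = 0.0160), a fold of 1.58, on raw counts of 178 to 182 in the controls and 337 to 486 in the labelled knockouts. The adjusted p was under 0.05 in all 12 alternatives that kept the 6 libraries, and in 1 of the 6 that left a library out. It was 0.0556 without control replicate 1, 0.0768 without control replicate 2, 0.0692 without control replicate 3, 0.0601 without knockout replicate 2, 0.0502 without knockout replicate 3 and 0.00610 without knockout replicate 1 (edgeR), with log2 fold changes from 0.62 to 0.73.

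CDKN2A encodes p16, an INK4 inhibitor, and from another first exon p14ARF, which shields p53 from MDM2. The gene spans chr9:21967752-21995301 on the reverse strand (ENSG00000147889.18), and counts per gene do not separate its products. CDKN2A stood at 72.9, 73.9 and 56.2 CPM in the controls and at 69.5, 77.9 and 70.5 CPM in the labelled knockouts. The groups overlapped and control replicate 3 stood below the other 5 libraries. The log2 fold change of 0.10 (95% interval -0.13 to 0.33, edgeR adjusted p = 0.686) turned to -0.01 without control replicate 3 (adjusted p = 0.947), and was 0.16 and 0.17 without control replicates 1 and 2 and 0.05 without knockout replicate 2. CDKN2B counts divided by CDKN2A counts in the same library were 0.0931, 0.0900 and 0.114 in the controls and 0.136, 0.142 and 0.156 in the labelled knockouts. All 3 labelled knockouts were above the controls (difference in log2 ratio 0.55, two-sided exact permutation p = 0.1, the smallest possible).

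CDKN2C and CDKN2D encode p18 and p19, INK4 inhibitors of CDK4 and CDK6. CDKN2C lies at chr1:50960745-50974634 on the forward strand (ENSG00000123080.12). It stood at 31.7, 30.0 and 28.7 CPM in the controls and at 31.8, 34.1 and 32.3 CPM in the labelled knockouts. The groups did not overlap, but the lowest labelled knockout and the highest control were nearly level, and the log2 fold change of 0.12 (95% interval -0.07 to 0.31) had an edgeR adjusted p of 0.514. CDKN2D lies at chr19:10566460-10569059 on the reverse strand (ENSG00000129355.7). It stood at 4.88, 5.72 and 4.64 CPM in the controls and at 5.36, 5.77 and 6.66 CPM in the labelled knockouts. These overlapped, and the log2 fold change was 0.23 (95% interval -0.09 to 0.55, edgeR adjusted p = 0.469), and 0.13 without knockout replicate 3.

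**Figure D2:**
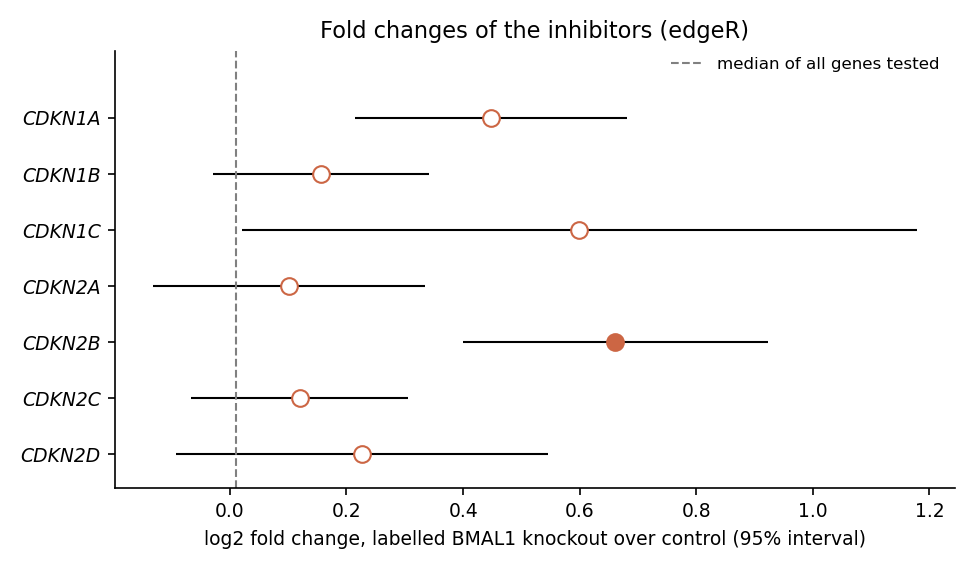
Log2 fold change of each inhibitor, labelled BMAL1 knockout over control, with its 95% interval from edgeR; a filled point has an adjusted p under 0.05 and the dashed line is the median of all genes tested, 0.01. CDKN2B, at 0.66, is the only filled point, and with the default estimator of edgeR CDKN1A, at 0.45, would be filled as well.

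Levels were compared between the inhibitors per length, as CPM per 1000 bases of the canonical transcript. In the controls the order was CDKN2A (69.2 ± 10.1), CDKN1A (48.9 ± 6.14), CDKN1B (42.4 ± 1.75), CDKN2C (30.3 ± 1.5), CDKN2D (3.57 ± 0.398), CDKN2B (1.72 ± 0.0519) and CDKN1C (0.923 ± 0.259; SD, n = 3). Over canonical length CDKN1A and CDKN1B did not differ beyond their spread in the controls, where CDKN1B was above CDKN1A in replicate 3. In the labelled knockouts CDKN1A reached 66.8 ± 7.30 and CDKN1B 47.2 ± 4.44 per 1000 bases, and CDKN1A was the higher in all 3 libraries. Divided by the summed length of all annotated exons instead, CDKN1A came first (34.6 ± 4.34 in the controls) and CDKN2A after it (17.4 ± 2.55), so the order of these 2 genes depends on the length used. CDKN2B, the member that rose, made up 0.873% ± 0.0474 of the family's summed level in the controls and 1.18% ± 0.0422 in the labelled knockouts (SD, n = 3). CDKN1A made up 24.8% ± 1.22 and 29.1% ± 1.24. These shares depend on the length as well: over summed exon length CDKN2B made up 2.11% ± 0.132 in the controls and 2.71% ± 0.0946 in the labelled knockouts, and CDKN1A 43.8% ± 1.79 and 48.8% ± 1.53 (SD, n = 3).

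**Figure D3:**
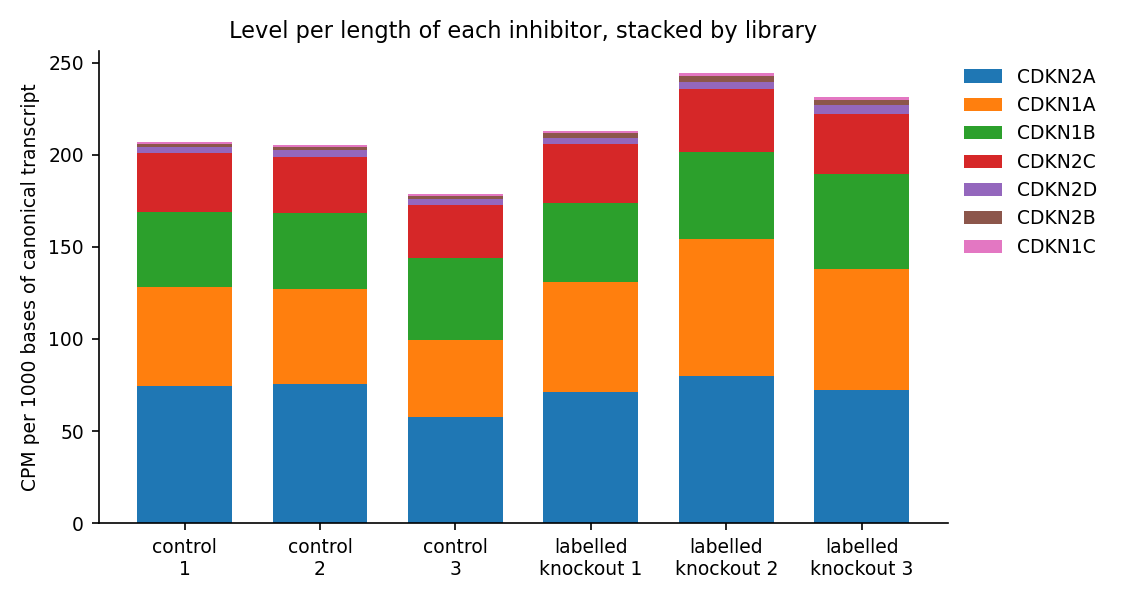
CPM per 1000 bases of canonical transcript of each inhibitor, stacked for each of the 6 libraries. CDKN2A, CDKN1A, CDKN1B and CDKN2C make up most of each bar, while CDKN2B, at 1.72 in the controls and 2.72 in the labelled knockouts on average, is a thin band.

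Promoter sequences are shown for CDKN1A and CDKN2B, whose groups lay furthest apart for their spread, and for the p16 start of CDKN2A, the neighbour of CDKN2B whose groups overlapped. They are the 250 bases before the annotated start in RefSeq (GRCh38.p14), which held windows for 6 of the 7 genes, 9 in all; CDKN1C is named only. The GC box GGGCGG, searched on both strands, is in capitals.
CDKN1A, chr6:36678464-36678713, forward strand: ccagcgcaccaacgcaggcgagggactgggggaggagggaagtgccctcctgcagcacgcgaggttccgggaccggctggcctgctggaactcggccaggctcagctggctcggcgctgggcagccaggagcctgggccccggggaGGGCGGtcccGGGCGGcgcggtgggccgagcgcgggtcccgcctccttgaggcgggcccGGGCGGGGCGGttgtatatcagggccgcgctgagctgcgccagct
CDKN2B, chr9:22009306-22009555, reverse strand: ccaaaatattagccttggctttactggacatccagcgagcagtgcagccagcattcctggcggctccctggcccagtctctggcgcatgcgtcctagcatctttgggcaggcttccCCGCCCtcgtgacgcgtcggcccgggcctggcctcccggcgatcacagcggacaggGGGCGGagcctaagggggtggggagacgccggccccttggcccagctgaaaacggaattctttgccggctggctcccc
CDKN2A, p16 start, chr9:21974858-21975107, reverse strand: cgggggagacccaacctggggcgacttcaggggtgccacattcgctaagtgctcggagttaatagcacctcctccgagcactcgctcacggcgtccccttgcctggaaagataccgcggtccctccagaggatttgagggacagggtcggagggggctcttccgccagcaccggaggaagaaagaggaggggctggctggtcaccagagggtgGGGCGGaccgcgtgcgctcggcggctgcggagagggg
CDKN1A held 4 GC boxes, of which the last pair shares 1 base, CDKN2B held 2 and the p16 window of CDKN2A held 1. Among windows not shown, the largest number was 5, in a window of CDKN2C, whose other windows held 1 and 0, while CDKN2D held 2, CDKN1B 1 and the p14ARF window of CDKN2A 0. A GC box was found in 42.6% of all 35116 promoter windows of this length. The E-box CACGTG, the sequence that BMAL1 and CLOCK bind, was in 6.34% of all windows. Among the inhibitors it was found in 2 of the 3 windows of CDKN2C and in no window of the others. It is shown in capitals with 12 bases on either side.
CDKN2C, chr1:50960513-50960542, forward strand: gattgtgcacctCACGTGgttagtcacaca
CDKN2C, chr1:50970164-50970193, forward strand: ttgctgaataatCACGTGtgaatcgagggg
The half-site AGGTCA of REV-ERB and ROR proteins (12.1% of all windows), the p53 half-site (5.57%), the E2F sites TTTCGCGC and TTTGGCGC (0.968% for either) and the TATA box TATAAA (10.7%) were in none of the 9 windows on either strand. Only the 250 bases before each start were searched, so sites further away, for p53 or the others, would be missed. These are matches of letters, and binding was not measured here.

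The study's quantitative PCR primers show which part of CDKN1A and CDKN2A its other assay reads.
CDKN1A forward: tgtccgtcagaacccatgc
CDKN1A reverse: aaagtcgaagttccatcgctc
CDKN2A forward: atggagccttcggctgact
CDKN2A reverse: gtaactattcggtgcgttggg
Both CDKN1A primers lie in exon 2 of the canonical transcript, at chr6:36684122-36684140 and chr6:36684240-36684260, and match 7 of 8 annotated transcripts. Both CDKN2A primers lie in exon 1 of the p16 transcript, at chr9:21974785-21974803 and chr9:21974696-21974716, and match 4 of 14 transcripts. The CDKN2A primers thus read fewer of the transcripts than the counts per gene do. Since each pair lies within 1 exon, neither spans an intron.

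Neighbouring genes were looked at because the sources used here do not say whether counting used strand. CDKN2A shares 593 exon bases with the antisense transcript CDKN2B-AS1, CDKN1A shares 146 with DINOL and CDKN2C shares 617 with a long noncoding gene. These partners are on the opposite strand and were not analysed here. If counting ignored strand, their reads from the shared bases cannot be told apart from those of the inhibitors. CDKN2B shares no exon bases with CDKN2B-AS1. MTAP, on the other side of CDKN2A, had a log2 fold change of -0.24 (edgeR adjusted p = 0.225) and DMRTA1, beyond CDKN2B, one of -0.02 (adjusted p = 0.979). Beside CDKN1B, APOLD1 stood at 17.9, 13.6 and 13.2 CPM in the controls and at 43.0, 21.3 and 55.9 CPM in the labelled knockouts, with knockout replicate 2 the closest to the controls. Its log2 fold change was 1.44 with a standard error of 0.40 (edgeR adjusted p = 0.177). APOLD1 passed in 3 of 18 alternatives, at an adjusted p of 4.93e-05 without knockout replicate 2 (edgeR, log2 fold change 1.73), 0.0207 in DESeq2 and 0.0289 in edgeR with no robust estimation, and over all 18 the adjusted p ran to 0.431. Of the other neighbours of CDKN1B, GPR19, which overlaps CDKN1B on the opposite strand with no shared exon bases, 0.63 (adjusted p = 0.103) and CREBL2 0.05 (adjusted p = 0.838). SRSF3 beside CDKN1A had 0.07, FAF1 beside CDKN2C -0.02, SLC22A18 beside CDKN1C 0.28, and KRI1 and AP1M2 around CDKN2D -0.23 and 0.26, with edgeR adjusted p-values from 0.126 to 0.930. AP1M2, at 0.126 as reported, reached 0.0459 in edgeR without knockout replicate 1, in a range of 0.0267 to 0.401 over the alternatives. RAB44, KCNQ1 and C1orf185 did not pass the filter on low counts.

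The genes most like each inhibitor over the 6 libraries were found by the root mean square difference of mean-centred log2 CPM. For CDKN1A they were NANOS1 (0.04), HIC1 (0.05) and MANSC1 (0.05). For CDKN2B they were KSR1 (0.05), FBLN1 (0.05) and TUBB2B (0.06). For CDKN1B they were an assembled locus without a name, DUSP1 (0.02) and MAML2 (0.02), for CDKN2A NME4, RPS6KL1 and APBB3 (each 0.03), and for CDKN2C MAGED2 (0.01), IFT122 and NIPSNAP1 (both 0.02). CDKN1C, with its low counts, had more distant ones, EPHB3 (0.13), GDF6 (0.14) and GPRIN2 (0.15), and CDKN2D had SFXN5 (0.04), FAM171A2 and TBC1D3E (both 0.05). The match describes these 6 libraries only.

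Among the cyclins, kinases and CDC25A that the inhibitors act on or with, 1 of 10 genes tested was lower and none higher in edgeR. Before adjustment 1 gene in each direction had p under 0.05, and DESeq2 called 1 higher and 1 lower. CCND1, the cyclin D1 gene whose kinases CDK4 and CDK6 are bound by CDKN2B, stood at 219 ± 6.29 CPM in the controls and 142 ± 9.85 CPM in the labelled knockouts (SD, n = 3). It fell by 0.62 on the log2 scale (SE 0.076, edgeR adjusted p = 0.00242), and the adjusted p was at most 0.0206 whichever library was left out. CDK1, the mitotic kinase, stood at 217, 230 and 253 CPM in the controls and at 402, 279 and 270 CPM in the labelled knockouts, with knockout replicate 1 far above the others. Its log2 fold change was 0.44 (edgeR adjusted p = 0.118), and 0.23 without knockout replicate 1 (adjusted p = 0.0886). DESeq2 called CDK1 higher (adjusted p = 0.0296), as did edgeR with the GC trend removed (0.0246, and 0.0344 with the replicate block), in a range of 0.0246 to 0.346 over 18 alternatives. The median of this list was -0.02, beside 0.01 for all loci.

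Of 13 RB and E2F proteins 1 was higher, E2F7, a repressor in the E2F family that p53 induces (log2 fold change 0.36, edgeR adjusted p = 0.0338). It lost the call without control replicate 1 (0.127), control replicate 2 (0.180), control replicate 3 (0.0720), knockout replicate 2 (0.162) and knockout replicate 3 (0.0623), while 2 of the 13 passed without knockout replicate 1. E2F6 had a log2 fold change of 0.25 (edgeR adjusted p = 0.229), and the list's median was 0.02. The median log2 fold change of 29 E2F, replication and mitosis genes, which RB restrains, was -0.01. Among them GINS1, a part of the replicative helicase, had a log2 fold change of 0.28 (edgeR adjusted p = 0.0665, and 0.0449 without knockout replicate 1, in a range of 0.0123 to 0.256 over the alternatives in edgeR, DESeq2 and limma).

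Among p53, its regulators and the damage kinases 1 of 7 was higher: MDM2, the ubiquitin ligase of p53 and itself a p53 target, rose by 0.48 on the log2 scale (SE 0.075, edgeR adjusted p = 0.00738, and 0.0705 without control replicate 2). MDM4, its partner, had 0.23 (edgeR adjusted p = 0.145), and the median was 0.02. Of 29 other p53 target genes, the class CDKN1A belongs to, 8 were higher and none lower, with a median of 0.25; DESeq2 gave 10 higher and none lower, and at an unadjusted p under 0.05 in edgeR 17 were higher and 2 lower. The count of 8 became 5 without control replicate 1, 2 without control replicate 2, 3 without control replicate 3 and 4 without knockout replicate 2, and without knockout replicate 1 there were 11 higher and 1 lower. BTG2, an antiproliferative factor, rose by 0.84 (edgeR adjusted p = 0.00279) and TP53I3, an oxidoreductase, by 0.74 (adjusted p = 0.00738), and both kept an adjusted p under 0.05 whichever library was left out.
The other 6 lost it at least once. PPM1D, the phosphatase that turns off p53 signalling, rose by 0.56 (edgeR adjusted p = 0.0105, and 0.0771 without control replicate 2). FAS, a death receptor, rose by 0.61 (edgeR adjusted p = 0.0109, and 0.0616 and 0.0711 without control replicates 2 and 3). TP53INP1 rose by 0.69 (edgeR adjusted p = 0.0134), with 0.0592 and 0.0539 without control replicates 2 and 3 and 0.050 without knockout replicate 2. GADD45A, a damage-induced growth arrest gene, rose by 0.39 (edgeR adjusted p = 0.0174), with 0.101, 0.0955 and 0.0558 without control replicates 1, 2 and 3 and 0.101 without knockout replicate 2. SERPINB5, at 0.637 ± 0.0411 CPM in the controls and 1.55 ± 0.161 CPM in the labelled knockouts (SD, n = 3), rose by 1.28 (edgeR adjusted p = 0.0240), with 0.0946, 0.106 and 0.0858 without control replicates 1, 2 and 3 and 0.0589 without knockout replicate 2. PHLDA3, an inhibitor of AKT, rose by 0.48 (edgeR adjusted p = 0.0372), with 0.0987, 0.0914 and 0.115 without control replicates 1, 2 and 3 and 0.147 and 0.0817 without knockout replicates 2 and 3, and PHLDA3 missed the threshold in limma as well (adjusted p = 0.0559).

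Of the 16 TGF-beta, SMAD, MYC and FOXO genes that feed into CDKN2B and the CIP/KIP genes, 1 was lower and none higher, with a median of -0.10. KLF4, a factor that can activate CDKN1A, fell by 0.48 on the log2 scale (edgeR adjusted p = 0.0193). It lost the call without control replicates 1 (0.0632), 2 (0.115) and 3 (0.0681) and knockout replicates 2 (0.050) and 3 (0.0669). MYC, which represses CDKN1A and CDKN2B through ZBTB17, had a log2 fold change of -0.26 (edgeR adjusted p = 0.166). No gene passed in edgeR among the 12 ubiquitin ligase parts that turn over CIP/KIP proteins, with a median of 0.00. None passed among the 17 Polycomb and T-box regulators of the INK4 locus either, with a median of 0.05. At an unadjusted p under 0.05 in edgeR there were 2 lower in each list and none higher. The share of all loci lower at that p is not given here, so lower counts in any list are not set against it. DESeq2 called 1 ubiquitin ligase gene, CDC20, as lower and 0 of the regulators of the INK4 locus. The smallest p-values belonged to CDC20 (log2 fold change -0.22, edgeR adjusted p = 0.126, and 0.0491 without knockout replicate 1, in a range of 0.0315 to 0.396 over the alternatives) and CUL4A (-0.19, adjusted p = 0.1999), and to PHC2 (-0.25, adjusted p = 0.129) and TBX3 (-0.34, adjusted p = 0.194).

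**Figure D4:**
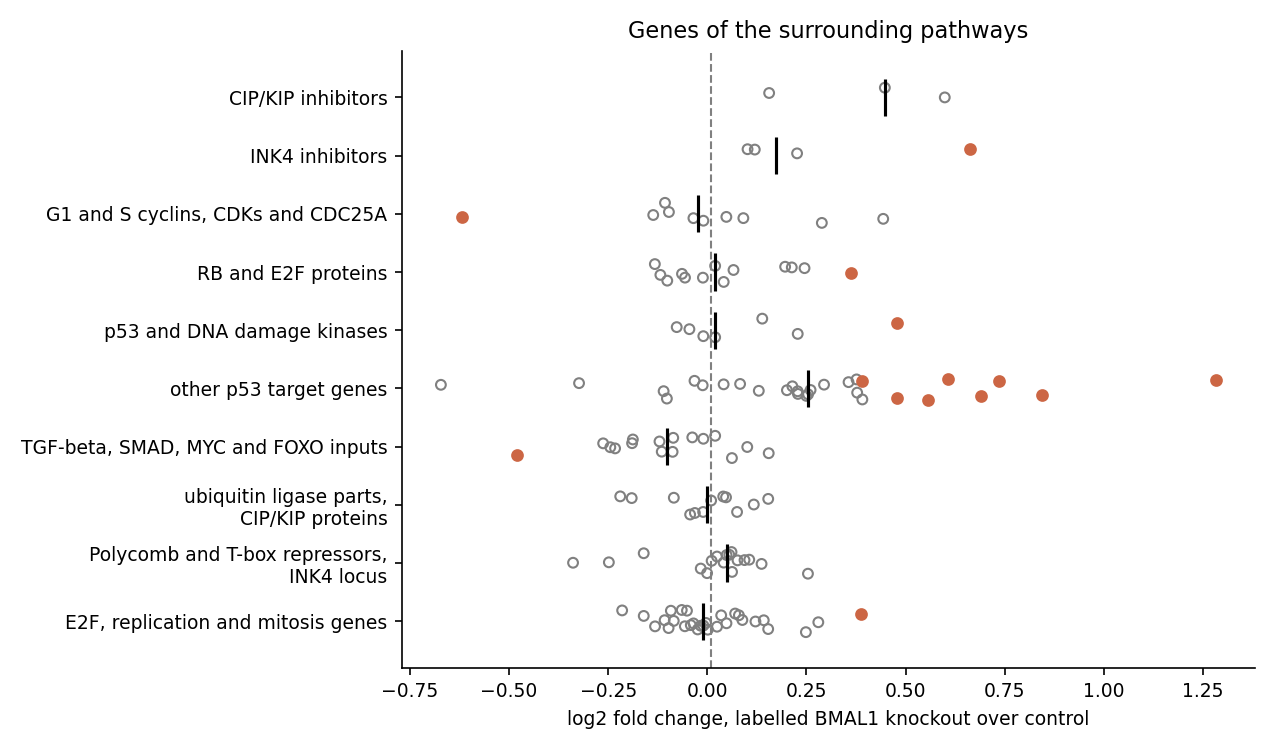
Log2 fold change, labelled BMAL1 knockout over control, of every gene tested in the inhibitor families and 8 lists around them; filled points have an edgeR adjusted p under 0.05, black bars are list medians and the dashed line is the median of all genes tested. The 8 filled points among 29 other p53 target genes lie to the right, and CCND1 and KLF4 are the filled points to the left.

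**Figure D5:**
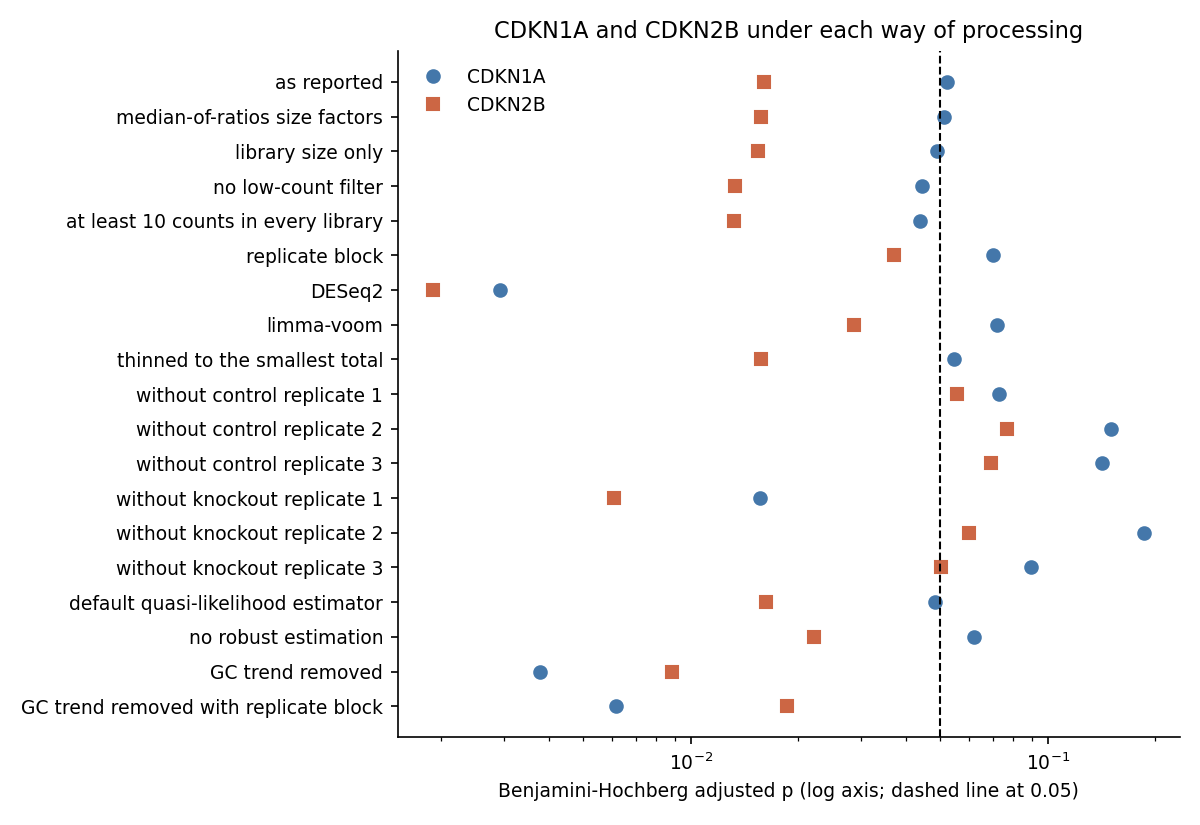
Adjusted p of CDKN1A (circles) and CDKN2B (squares) on a log axis, as reported and under each of 18 alternatives, with the dashed line at 0.05. CDKN2B stays left of the line wherever all 6 libraries are kept, while CDKN1A falls on either side, at 0.0520 as reported and 0.0483 with the default estimator.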

How the data were processed

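The authors deposited whole-number counts of reads per gene, in 1 table for all 6 libraries. By the study's methods, 150-bp paired-end reads were mapped to hg38 and uniquely mapped reads counted, with fastp 0.20.1 named for mapping and HISAT2 2.0.4 for counting. The annotation and the use of strand are not given in the sources used here.

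From these counts edgeR 4.0.16 in R 4.3.3 computed TMM-scaled CPM, log2 fold changes and p-values (low-count filter, quasi-likelihood fit with robust estimation), adjusted over 14860 loci by Benjamini-Hochberg. The planned test did not name the estimator of the quasi-likelihood dispersions. The newer one was used, which is not the default of this edgeR version; it was chosen after the results of both had been seen, to follow earlier processing of these data, and the choice decides whether CDKN1A passes. DESeq2 1.42.0, limma 3.58.1, other scalings, filters and thresholds, thinning, a replicate block and leaving out each library were alternatives. The default estimator, no robust estimation and the GC corrections were added after seeing the data. The count tests were tested on simulated data. Exact permutation tests used scipy 1.17.1. Gene positions and lengths are from GENCODE v44 on hg38.

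The genes named are the 7 inhibitors, BMAL1 and NR1D1, in each list those with an adjusted p under 0.05 (at most 8, or the 2 with the smallest p where fewer than 2 passed), annotated neighbours, and for each inhibitor the 3 genes with the closest profile among those with a mean of at least 1 CPM. Members and lists were chosen with earlier results of these data known. Results of some genes in the lists are not reported here.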

Additional observations from a re-analysis of the deposited data

How the results depend on the processing

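CDKN1B, CDKN1C, CDKN2C and CDKN2D kept their direction and missed the threshold in all 18 alternatives. CDKN1A was higher in all 18 and passed the threshold in 8: its log2 fold change was 0.48 with library size only, 0.45 without a low-count filter, 0.45 with at least 10 counts in every library, 0.45 with DESeq2 and, in fits added after seeing the data, 0.45 with the default quasi-likelihood estimator and 0.47 with the GC trend removed, with or without the replicate block. In each of these 7 settings 2 inhibitors passed, in place of 1. Leaving out single libraries gave a log2 fold change of 0.35 to 0.52 for CDKN1A, -0.013 to 0.17 for CDKN2A, 0.62 to 0.73 for CDKN2B and 0.50 to 0.69 for BMAL1, with 0 to 2 inhibitors passing, 39 to 323 loci higher, 65 to 360 lower and 2 to 11 p53 targets higher, the highest counts all without knockout replicate 1; the cause was not tested. For the other inhibitors it gave 0.086 to 0.22 for CDKN1B, 0.40 to 0.81 for CDKN1C, 0.089 to 0.16 for CDKN2C and 0.13 to 0.32 for CDKN2D, with the lowest values of CDKN1B and CDKN2D without knockout replicate 3. The loci higher and lower numbered 256 and 379 with DESeq2, 485 and 593 with the GC trend removed, 35 and 58 at an adjusted p under 0.01, and 84 and 52 at a fold over 2 with an unadjusted p under 0.01. With the GC trend removed 13 p53 targets were higher. With the replicate block 97 loci were higher, 119 lower and 5 p53 targets higher, and with the block and the GC trend removed 406 and 501 loci. The block alone ended the calls of E2F7 (edgeR adjusted p = 0.106), KLF4 (0.0543), GADD45A (0.0614), SERPINB5 (0.0534) and PHLDA3 (0.0568). No pairing by replicate number was seen: deviations of same-numbered libraries correlated across genes at -0.0896, -0.0517 and -0.00471. Not every library correlated best with its own number. The deviations were taken from group means of 3 libraries, so this check cannot exclude a pairing. COL1A1, near 0 as reported, turned to 0.030 with library size only, 0.0032 without a low-count filter, 0.0024 with at least 10 counts, 0.017 with the GC trend removed and 0.012 with the block as well, and ran from -0.094 to 0.13 with a library left out. DMRTA1 turned to 0.012 with library size only, 0.0012 with limma-voom and 0.0031 after thinning, and ran from -0.17 to 0.17 with a library left out. FAF1 turned to 0.011 with library size only. With a library left out SRSF3 ran from -0.10 to 0.15, CREBL2 from -0.018 to 0.10 and, without a change of direction, PAX8 from -0.43 to -0.18, KRT7 from 0.063 to 0.13, KRT19 from 0.13 to 0.31, PDGFRB from 0.049 to 0.24, VWF from -0.46 to -0.093, CDH5 from -0.87 to -0.20, MTAP from -0.31 to -0.14, SLC22A18 from 0.16 to 0.37, FAF1 from -0.045 to -0.0012 and the log2 ratio of CDKN1A to CDKN1B from 0.16 to 0.39. None of these genes passed the threshold in those fits, and the cause was not tested. Of the genes named here that missed it as reported, KRT8, CUL4A, PHC2 and MTAP passed as lower and CDKN1A, CDK1, GINS1 and AP1M2 as higher with the GC trend removed, and with the block as well KRT8, CUL4A, MTAP and PAX8 passed as lower and CDKN1A, CDK1 and AP1M2 as higher. CDKN1C had the fewest counts of the 7 inhibitors, 31 to 124 a library, and its log2 fold change after thinning every library to the lowest depth was 0.72 (edgeR adjusted p = 0.210, in a range of 0.0863 to 0.627 over the alternatives).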
